A study of Drosophila melanogaster with 2 samples.

Results

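Cuticle protein genes encode the structural proteins of the insect exoskeleton. They were taken here as the protein-coding genes of the Ensembl BDGP6.54 annotation whose symbol begins with Cpr and a digit, Ccp84A, Lcp and a digit, or Twdl. The rule found 117 of the 13945 protein-coding genes on the 6 assembled chromosome arms of Drosophila melanogaster, of which 70 were Cpr, 7 Ccp84A, 15 Lcp and 25 Twdl genes. Their Araucan binding was read from ChIP-seq peak lists of whole embryos of the ara-GFP strain, aged 0 to 24 h. The flies carried an ara-eGFP transgene, and chromatin was precipitated with an antibody against GFP. The labels give 1 group of 2 biological replicates, so there was no untagged or mutant group. Libraries made as controls were not analysed here. The collection pools all embryonic stages and all cells of the embryo, so that a peak cannot be assigned to a stage or to the epidermis.

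Araucan belongs to the Iroquois family of homeodomain factors, which bind DNA and help to pattern tissues such as the wing and the eye. The epidermis secretes the cuticle late in embryogenesis as layers of chitin fibres bound by protein. Most Cpr, Lcp and Ccp84A proteins carry the Rebers-Riddiford domain, which binds chitin, whereas the Tweedle (Twdl) proteins form a separate family, in which mutations of TwdlD alter body shape. Genes of these families arose largely by tandem duplication and lie in clusters.

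Cuticle protein genes had short, simple gene structures with few other starts nearby. Their median length was 983 bp, against 2166 bp for all protein-coding genes, and 107 of them (91.5%) had a single annotated transcription start site (TSS), against 73.5% of all. A TSS of another protein-coding gene lay within 1 kb in 14 of them (12.0%), against 42.9% of all. The hexamer TATAAA, the core of the TATA box, started at positions -40 to -20 from the canonical TSS on the gene's strand in 68 cuticle protein genes (58.1%), against 7.92% of all protein-coding genes and 13.8% of the 3444 genes of up to 2 kb with 1 TSS and no other coding TSS within 1 kb. The share was 52.9% in Cpr, 71.4% in Ccp84A, 73.3% in Lcp and 15 of 25 in Twdl genes. To show this shared feature, 1 promoter of each family is given from 60 bases before the TSS to 20 bases from it on, on the gene's strand, from the RefSeq Release 6 genome (dm6), with the hexamer in capitals. They are Cpr64Aa (chr3L:4209159-4209238, minus strand), Ccp84Ag (chr3R:6686668-6686747, plus strand), Lcp65Ae (chr3L:6138099-6138178, minus strand) and TwdlD (chr3R:26639965-26640044, plus strand). The hexamer starts at -33 in Cpr64Aa, -32 in Ccp84Ag and -27 in TwdlD, but at -40, the edge of the range, in Lcp65Ae.
Cpr64Aa: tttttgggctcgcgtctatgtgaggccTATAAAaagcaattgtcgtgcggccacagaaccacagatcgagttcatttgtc
Ccp84Ag: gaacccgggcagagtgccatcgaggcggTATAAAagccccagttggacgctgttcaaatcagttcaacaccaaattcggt
Lcp65Ae: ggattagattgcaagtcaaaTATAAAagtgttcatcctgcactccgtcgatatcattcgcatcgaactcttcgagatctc
TwdlD: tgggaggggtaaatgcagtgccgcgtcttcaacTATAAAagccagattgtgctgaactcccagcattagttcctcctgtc

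**Figure D1:**
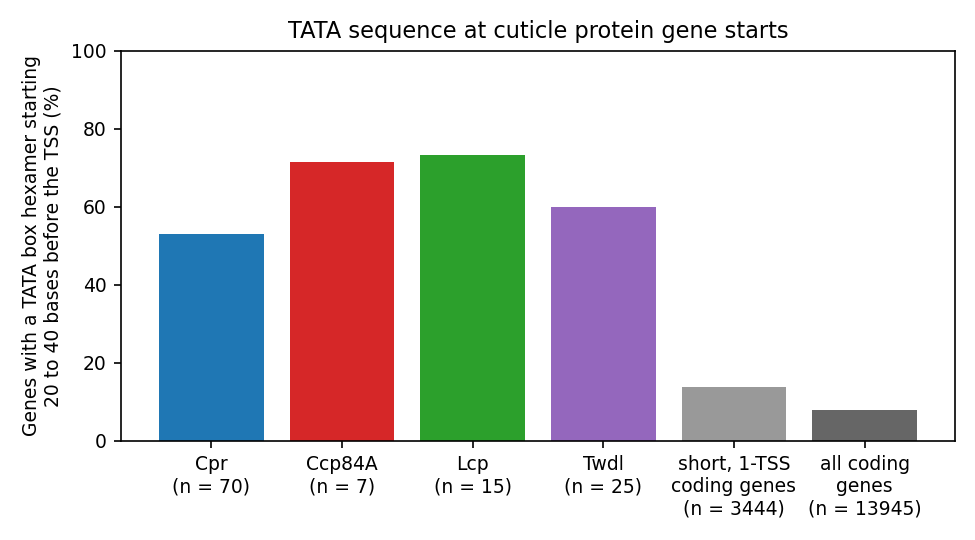
Share of genes (%) in which the TATA box hexamer starts 20 to 40 bases before the canonical TSS, for the cuticle protein families, for short protein-coding genes with 1 TSS and no other coding TSS within 1 kb, and for all protein-coding genes. Each bar of a cuticle protein family stands above 50%, against 13.8% for the short genes and 7.92% for all genes.

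Araucan peaks were rare at the starts of cuticle protein genes. In the conservative list, which holds peaks that repeated between the replicates, a summit lay within 1 kb of an own TSS in 2 of 117 cuticle protein genes (1.71%, exact 95% interval 0.208 to 6.04%), against 18.5% of all protein-coding genes. Both were Cpr genes, Cpr64Aa and Cpr73D, and none of the 7 Ccp84A, 15 Lcp and 25 Twdl genes had one. Within 5 kb of the gene, 21 cuticle protein genes (17.9%, 11.5 to 26.1%) had a summit, against 43.7% of all. These were 17 of 70 Cpr genes (24.3%) and 4 of 7 Ccp84A genes (57.1%), with none among Lcp genes (exact 95% interval 0 to 21.8%) and none among Twdl genes (0 to 13.7%). In replicate 1's own list 9 cuticle protein genes (7.69%) had a summit within 5 kb, against 28.6% of all, and in replicate 2's 14 (12.0%), against 40.4% of all. None of the 7 Ccp84A genes had one in either replicate's list. In the other thresholded list 7 of the 25 Twdl genes had one, against 47.6% of all protein-coding genes. All 7 were counted through 1 shared peak in TwdlJ. The intervals cover counting error alone. Neighbouring genes share summits and are not independent, and no test of these differences was made.

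No summit lay within 500 bp of a cuticle protein TSS. Among all protein-coding genes, summits were densest there, at 50.1 per 100 genes and kb of distance within 250 bp of a TSS and 16.4 from 250 to 500 bp. From 500 bp to 1 kb the density was 3.42 for cuticle protein genes and 10.8 for all genes, and from 1 to 2 kb it was 4.27 and 8.73. From 4 to 5 kb it was 5.13 for cuticle protein genes and 9.57 for all genes. The nearest conservative summit was a median of 17534 bp from an own TSS for cuticle protein genes (quartiles 7876 and 26027 bp), against 8415 bp for all genes (2227 and 21123 bp). It was 16363 bp away for Cpr, 4146 bp for Ccp84A, 19979 bp for Lcp and 21019 bp for Twdl genes. TwdlT had the most distant nearest summit, at 63177 bp.

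**Figure D2:**
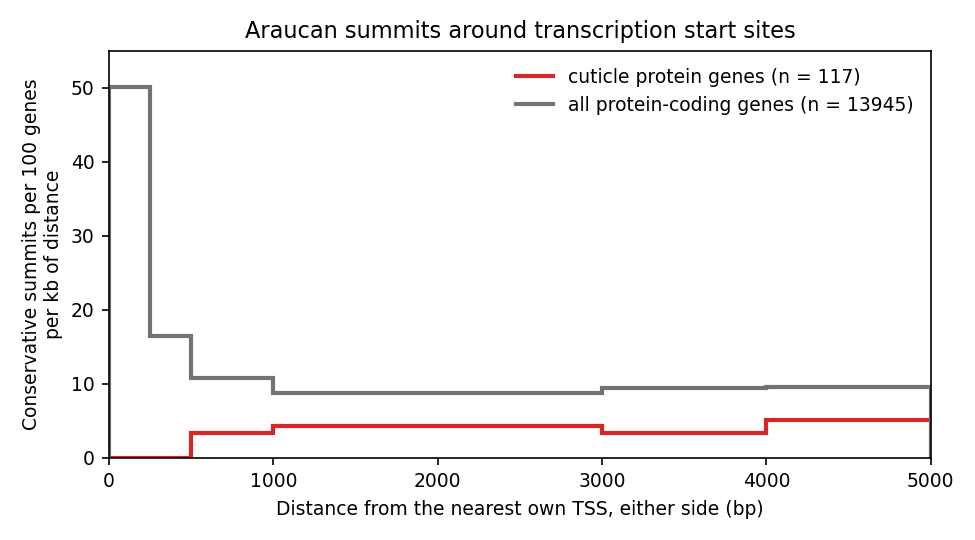
Conservative Araucan summits per 100 genes and kb of distance, by distance in bp from the nearest own TSS on either side, for 117 cuticle protein genes (red) and all 13945 protein-coding genes (grey). The cuticle protein line is at 0 up to 500 bp and between 3.42 and 5.13 farther out, below the grey line throughout.

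The share of bound starts was also set beside that of genes of like structure or place. Among genes of up to 2 kb with 1 TSS and no other coding TSS within 1 kb, a summit within 1 kb was found in 1 of 85 cuticle protein genes (1.18%), against 4.94% of all 3444 such genes. Within 5 kb of the gene the counts were 16 of 85 cuticle protein genes (18.8%), against 26.9% of such genes. Of the 374 other protein-coding genes within 20 kb of a cuticle protein gene, 17.4% had a summit within 1 kb of a TSS. With TATAAA at -40 to -20, a summit was present in 1 of 68 cuticle protein genes (1.47%), against 7.16% of the 1104 genes with the hexamer, and without it in 1 of 49 cuticle protein genes (2.04%), against 19.4% of all genes without it. Among the short genes with 1 TSS and no other coding TSS within 1 kb, those with the hexamer had a summit in 1 of 52 cuticle protein genes (1.92%), against 2.74% of all 475 such genes, and 5.29% of the 2969 such genes without it had one. Gene structure and the hexamer moved with the share of bound starts over all genes, and their part in the low count was not tested.

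Cpr64Aa, a chitin-binding family gene on the minus strand of 3L (4207838 to 4209178), had the strongest peak at a cuticle protein start. The summit at 4209963 lay 785 bp upstream of its TSS in an intron of CG43367, and had a signal of 100.7 in the authors' units, against a median of 96.2 in the conservative list. In the replicates' own lists it had 56.7 in replicate 1 and 39.1 in replicate 2, and it passed the threshold of both. The same locus held a second summit at 4207072 (67.0), beyond the 3' end of Cpr64Aa, with 36.9 in replicate 1 and 27.5 in replicate 2, and in neither thresholded list. Cpr64Ab and Cpr64Ac share both summits within their 5 kb flanks. Cpr64Ad was counted through another summit at 4219952 (66.4), 4573 bp from its TSS. This summit had 34.3 in replicate 1 and 30.3 in replicate 2, again in neither list. Like the first summit, those at 4207072 and 4219952 lay in introns of CG43367.

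Cpr73D had the other bound start, and the evidence was weaker there. This gene (3L, 16939100 to 16957689, minus strand) has 2 TSSs and overlaps Ogdh, the gene of a 2-oxoglutarate dehydrogenase subunit. The summit at 16956925 (63.3) lay 764 bp inside from the upstream TSS and only 514 bp from a TSS of Ogdh, in introns of both genes. Another at 16959297 (61.4) lay 1608 bp upstream of Cpr73D in a coding exon of Ogdh. The first had 32.8 in replicate 1 and 36.5 in replicate 2, and the second 34.5 and 31.4 in the same order, and neither summit was in either replicate's thresholded list. Next beyond the 1 kb limit came Cpr64Ab at 1577 bp and Cpr76Ba at 1616 bp. At the 5 kb limit, Cpr67B (4785 bp from the gene) and Cpr67Fb (4784 bp) were just inside, and Cpr11B (5352 bp) and Cpr60D (5496 bp) just outside.

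A further 3 peaks nearest a cuticle protein gene lay between the genes of a cluster or at its edge. Cpr76Ba, Cpr76Bb and Cpr76Bc share an intergenic summit at 19516716 on 3L, 1616 bp from the TSS of Cpr76Ba, with a signal of 144.8. It had 70.7 in replicate 1 and 80.4 in replicate 2, and passed in replicate 2 alone. Cpr65Ea, Cpr65Eb and Cpr65Ec share an intergenic summit at 7090964 on 3L (111.4), 2177 bp from the TSS of Cpr65Eb, with 48.9 in replicate 1 and 57.8 in replicate 2, and in both thresholded lists. Ccp84Ag, Ccp84Af, Ccp84Ae and Ccp84Ad share 1 intergenic summit at 6688586 on 3R (70.7), 1653 bp from the TSS of Ccp84Af, with 36.8 in replicate 1 and 28.6 in replicate 2, and in neither list. So 10 of the 21 genes within 5 kb of a summit rest on these 3 peaks.

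Windows are shown from 50 bases before to 50 bases after these 3 summits and the 2 nearest the TSSs of Cpr64Aa and Cpr73D. The shared summit at 4207072 was left out. The windows lie under the 2 peaks within 1 kb of a cuticle protein TSS and under 3 others that genes of a cluster share. They are on the plus strand of dm6 (RefSeq Release 6), with TAACA, a pentamer described for Iroquois proteins, or the Iroquois palindrome ACANNTGT in capitals on either strand. The windows are chr3L:4209913-4210013 (Cpr64Aa), chr3L:16956875-16956975 (Cpr73D), chr3L:7090914-7091014 (Cpr65Eb), chr3L:19516666-19516766 (Cpr76Ba) and chr3R:6688536-6688636 (Ccp84Af).
Cpr64Aa: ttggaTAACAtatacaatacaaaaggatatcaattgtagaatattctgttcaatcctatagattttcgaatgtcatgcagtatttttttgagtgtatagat
Cpr73D: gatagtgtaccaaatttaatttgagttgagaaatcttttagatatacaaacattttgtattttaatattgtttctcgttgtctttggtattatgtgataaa
Cpr65Eb: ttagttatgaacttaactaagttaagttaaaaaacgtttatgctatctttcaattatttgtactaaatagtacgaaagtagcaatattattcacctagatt
Cpr76Ba: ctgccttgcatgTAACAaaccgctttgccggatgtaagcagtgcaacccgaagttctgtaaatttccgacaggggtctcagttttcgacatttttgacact
Ccp84Af: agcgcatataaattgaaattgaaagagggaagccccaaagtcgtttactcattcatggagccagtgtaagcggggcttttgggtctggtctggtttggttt
TAACA was present in the windows of Cpr64Aa and Cpr76Ba, and the palindrome in none of the 5. The GC share was 26.7% at Cpr64Aa, 23.8% at Cpr73D, 23.8% at Cpr65Eb, 46.5% at Cpr76Ba and 45.5% at Ccp84Af, against a median of 34.7% over all conservative summit windows. Over the windows of all 14 peaks within 5 kb of a cuticle protein gene, TAACA was in 4, against 24.5% of all windows, and ACANNTGT in 0, against 4.80% of all windows.

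The strongest peaks within 5 kb of cuticle protein genes were nearest other genes. The peak assigned to Cpr78Cc (3L, summit 21304578) had a signal of 661.2, higher than 98.4% of the list, with 207.5 in replicate 1 and 437.9 in replicate 2, and lay 80 bp from the TSS of CG11309 and 3998 bp from that of Cpr78Cc. That of Cpr31A (2L, 10057471) had 241.4, with 73.0 in replicate 1 and 169.5 in replicate 2, in an intron 571 bp from the TSS of Pen, which encodes an importin alpha, and 3258 bp from that of Cpr31A. That of Cpr67B (3L, 9410959) had 212.7, with 71.4 in replicate 1 and 144.1 in replicate 2, 79 bp from the TSS of Cpsf5, a gene of mRNA 3' end processing, and 6162 bp from that of Cpr67B. These 3 were in both thresholded lists. The peak of Cpr66Cb (3L, 8340684) had 79.3, with 28.6 in replicate 1 and 58.3 in replicate 2, in an intron of Prim1, 4012 bp from the TSS of Cpr66Cb and nearer that of CG7083, and was in replicate 2's list alone. The peak of Cpr67Fb (3L, 10899477) had 72.4, with 46.1 in replicate 1 and 32.1 in replicate 2, 354 bp from the TSS of Aps and 5304 bp from that of Cpr67Fb, and was in neither list.

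Across all 14 peaks within 5 kb of a cuticle protein gene, 8 were nearest a cuticle protein TSS, with signals up to 144.8, and 6 were nearest another gene. The 14 peaks had a median signal of 75.8, against 96.2 for the list, and 8 of them were below that list median. Of the 14, 5 were in both replicates' thresholded lists, against 43.5% of all conservative peaks, 2 were in replicate 2's alone and 7 in neither. With 43.5% of all conservative peaks in both lists, absence from a replicate's list was not particular to these 14. By place, 6 were intergenic, against 38.2% of all conservative peaks, 7 intronic and 1 in a coding exon. The shares of all conservative peaks in 1 replicate's list alone, in neither list, in introns or in coding exons are not given here. The remaining peak nearest a cuticle protein gene was that of Cpr51A on 2R (summit 14518441, signal 64.3), intergenic and 3230 bp from its TSS, with 35.7 in replicate 1 and 28.0 in replicate 2, in neither list.

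**Figure D3:**
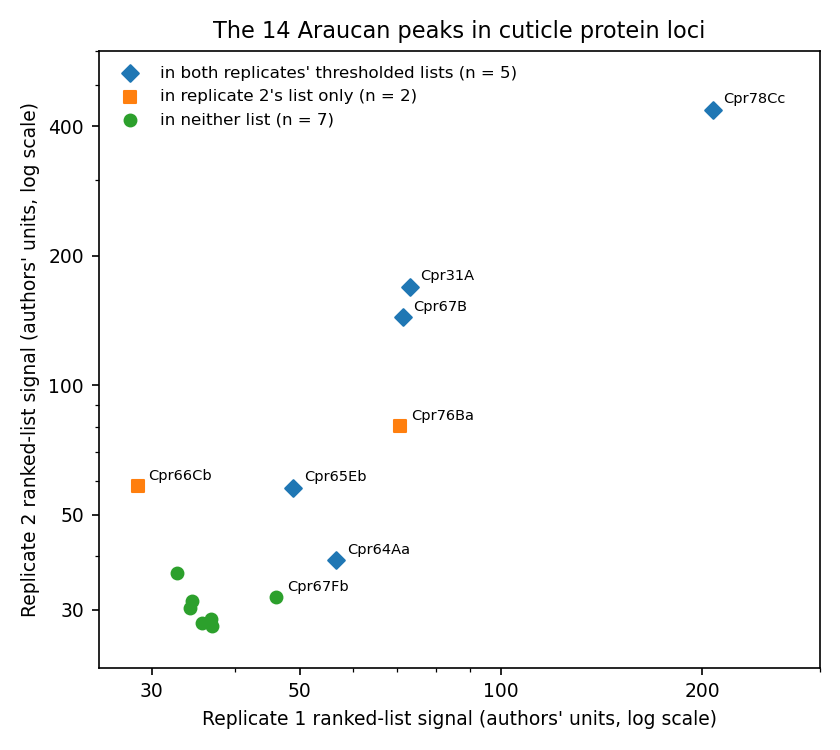
Signal of the 14 conservative peaks within 5 kb of a cuticle protein gene in replicate 1's (x) and replicate 2's (y) own ranked list, in the authors' units on log axes. Each point is a peak, named by its closest cuticle protein gene where either signal is above 45, with the symbol for the replicates' thresholded lists that hold it. The 7 peaks in neither list lie at 32.8 to 46.1 in replicate 1, and the peak of Cpr78Cc stands highest in both.

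The other peak lists were read in the same way. In the other thresholded list, 4 cuticle protein genes had a summit within 1 kb (3.42%), against 20.4% of all protein-coding genes, the added ones being Cpr78E and TwdlJ. Within 5 kb of the gene that list held 30 cuticle protein genes (25.6%), against 47.6% of all, the 9 further genes being Cpr30F, Cpr78E and 7 Twdl genes. TwdlL, TwdlO, TwdlK, TwdlJ, TwdlN, TwdlH and TwdlR were there through a single peak in a coding exon of TwdlJ (3R, summit 26630429), with a signal of 56.1, 35.5 in replicate 1 and 14.2 in replicate 2, and in neither replicate's thresholded list. Within 1 kb of a TSS, replicate 1's own list held a summit for 1 cuticle protein gene (0.855%), against 10.9% of all. Replicate 2's own list also held a summit within 1 kb for 1 (0.855%), against 16.7% of all. Cpr64Aa was that gene in both. Replicate 2's list alone also held a summit in a coding exon of Cpr66D at 8643258 on 3L (39.7), 2819 bp from its TSS.

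With peaks below the threshold included, cuticle protein starts had a lower median signal than all genes. The ranked list that compares the replicates holds 150015 peaks of any strength, and each gene was given its highest signal within 1 kb of an own TSS, or 0 where no peak was listed. The median was 29.8 for cuticle protein genes (quartiles 22.8 and 37.2), against 37.0 for all protein-coding genes (25.9 and 54.5). In the replicates' own ranked lists it was 16.9 for cuticle protein genes and 20.2 for all genes in replicate 1, and 14.9 and 20 in replicate 2. Of the 117 genes, 31 (26.5%) were above the median of all genes and 4 (3.42%) above its upper quartile. Among the short genes with 1 TSS and no other coding TSS within 1 kb, the median was 29.2 for the 85 cuticle protein genes and 29.7 for all 3444. The 374 neighbouring genes had a median of 34.9.

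By family the median was 30.4 in Cpr, 28.1 in Ccp84A, 24.0 in Lcp and 29.9 in Twdl genes. The replicate values below are the highest signal within 1 kb of an own TSS in each replicate's own ranked list. They were taken separately, so they can belong to another peak than the signal beside them. Of the Cpr genes without a summit within 5 kb, Cpr78E had the highest signal, 56.0 at 834 bp from its TSS (26.9 in replicate 1, 30.2 in replicate 2), then Cpr100A with 51.9 (35.2 and 20.8 in the same order). Of the Lcp genes, Lcp65Ae and Lcp65Af share the highest peak, 50.5 (28.6 in replicate 1, 21.2 in replicate 2), while Lcp65Aa had no listed peak. Among Twdl genes the range was 18.3 to 56.1, every one of the 25 having a listed peak. TwdlJ was highest with 56.1 (35.5 in replicate 1, 14.2 in replicate 2), then TwdlG with 40.6 (20.2 and 21.4), and TwdlV was lowest with 18.3 (15.2 and 14.5). The deposited score, of which 830 was the lowest in the conservative list, was 785 for Cpr78E, 576 for the peak of Lcp65Ae and 140 for that of TwdlJ. Of the Ccp84A genes without a summit within 5 kb, Ccp84Ac had 23.8 (26.1 in replicate 1, 17.1 in replicate 2), and Ccp84Ab and Ccp84Aa had no listed peak. In all, 11 cuticle protein genes (9.40%) had no peak in the list that compares the replicates, against 8.76% of all genes. Of these 11, 7 had a peak within 1 kb in a single replicate's own ranked list. It was 12.3 at Cpr64Ab in replicate 1, and in replicate 2 it was 18.2 at Cpr67Fa1, 32 at Cpr67Fa2, 14.6 at Cpr67Fb, 21.6 at Ccp84Ab, 16.1 at Ccp84Aa and 18.3 at Cpr92A. The other 4 had none in either. Of the 11 genes, 8 were Cpr genes: Cpr49Af, Cpr64Ab, Cpr65Ax2, Cpr67Fa1, Cpr67Fa2, Cpr67Fb, Cpr92A and Cpr11A.

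**Figure D4:**
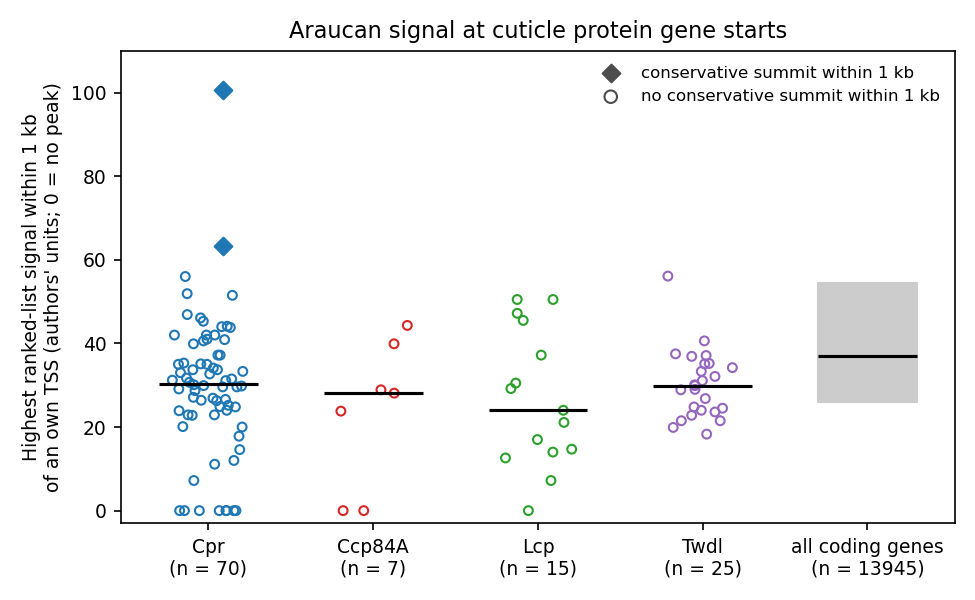
Highest signal within 1 kb of an own TSS in the ranked list that compares the replicates (authors' units, 0 where no peak was listed) for each cuticle protein gene by family, with the median as a line, beside the median and quartiles of all protein-coding genes (grey box). The filled diamonds are Cpr64Aa (100.7) and Cpr73D (63.3), and most other points lie under the median of all genes, 37.0.

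Cuticle protein genes lay in 45 groups when neighbours at most 20 kb apart were joined, 17 clusters of at least 2 genes with 89 genes in all and 28 single genes. The 17 clusters covered 284 kb and held 3 conservative summits, 1.06 per 100 kb, against 3.52 per 100 kb over the arms. The clusters with a summit inside were Cpr64Aa to Cpr64Ad, Cpr65Ea to Cpr65Ec and Ccp84Ag to Ccp84Aa, and 11 of the 17 had none within their 5 kb flanks either. The largest, Lcp65Ag3 to Cpr65Az on 3L, held 17 genes of the Lcp and Cpr families in 31.2 kb and no summit. TwdlM to TwdlD on 3R held 12 genes in 21.9 kb and no summit, with ranked signals from 21.5 to 56.1. The clusters Cpr49Aa to Cpr49Ah (8 genes, 38.5 kb) and Cpr47Ea to Cpr47Eg (7 genes, 26.7 kb) on 2R held no summit and had median ranked signals of 32.4 and 33.0. The larval cuticle genes Lcp1 to Lcp4 (8.38 kb) had no summit and a median of 29.8. Ccp84Ag to Ccp84Aa (7 genes, 18.2 kb) held 1.

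**Figure D5:**
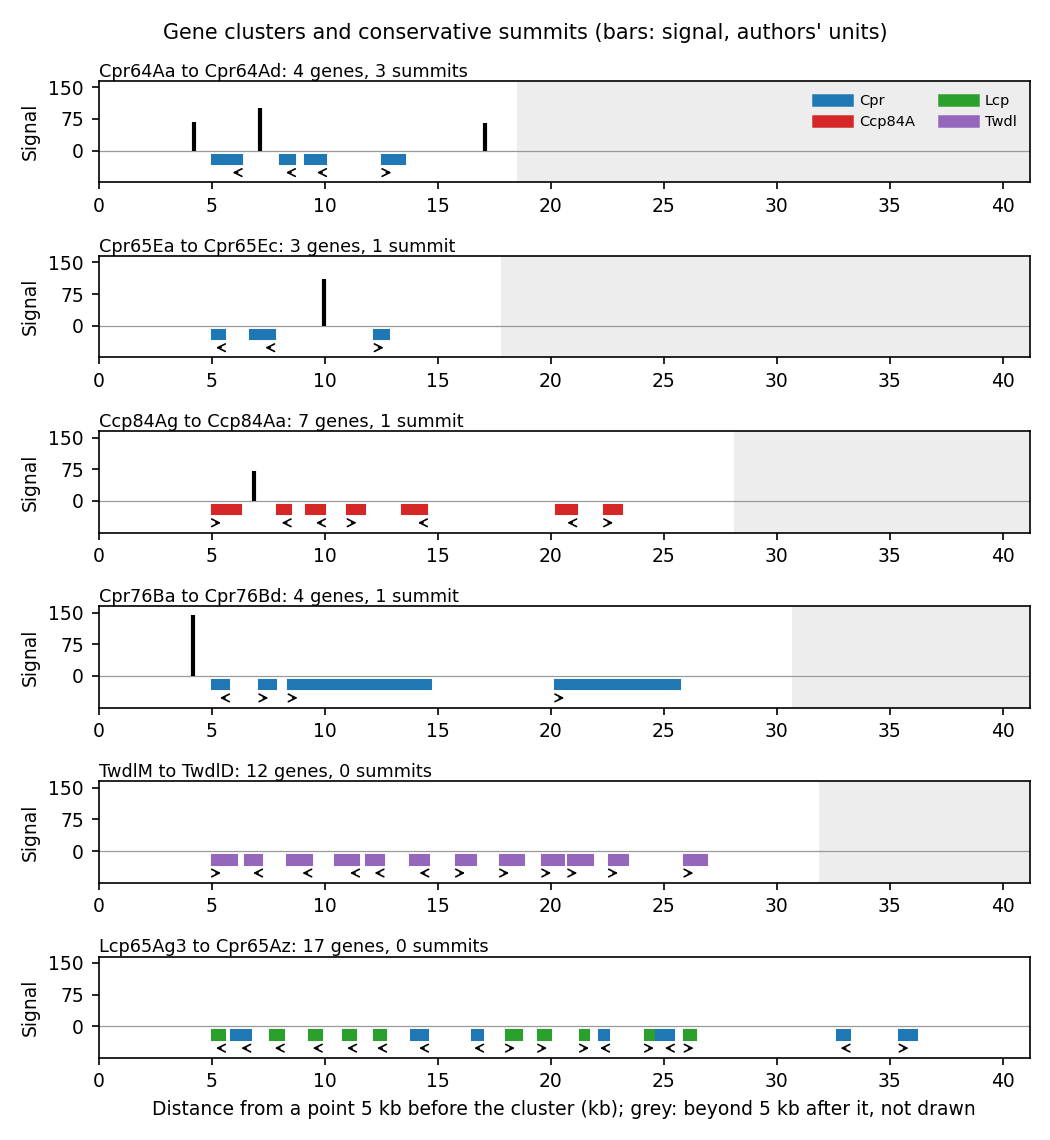
Maps of 6 cuticle protein gene clusters with 5 kb on each side, by distance in kb from a point 5 kb before the cluster. Boxes are cuticle protein genes coloured by family, arrows show the direction of transcription from the TSS, vertical bars are conservative summits with their signal (authors' units), and other genes are not drawn. The upper 4 clusters have 1 to 3 summits beside or between genes, and the TwdlM and Lcp65Ag3 clusters have none.

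Duplicated sequence touches some of these values. In 4 cuticle protein genes (3.42%), against 2.19% of all genes, at least 50% of the 32-base words within 1 kb of the TSS occur more than once on the arms. All 4, Lcp65Ab1, Lcp65Ab2, Cpr65Ax1 and Cpr65Ax2, belong to the Lcp65A cluster, with 62.8 to 73.7% of words repeated. Reads that lie wholly in sequence identical between copies cannot be told apart by sequence. The rest of each window is unique, and the share of reads affected was not measured. The promoters of Lcp65Ab1 (chr3L:6149488-6149567, plus strand) and Lcp65Ab2 (chr3L:6146614-6146693, plus strand), from 60 bases before to 20 bases from the TSS on, with TATAAA in capitals, show how alike they are.
Lcp65Ab1: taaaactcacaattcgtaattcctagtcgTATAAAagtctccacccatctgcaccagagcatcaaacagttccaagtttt
Lcp65Ab2: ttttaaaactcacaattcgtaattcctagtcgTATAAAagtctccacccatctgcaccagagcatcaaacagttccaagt
The ranked signal was 7.2 at Lcp65Ab1 and 12.6 at Lcp65Ab2. The cluster's median was 17.0 over its 17 genes and 24.0 over the 13 genes with fewer repeated words. No summit was found at any of the 17 starts, and the 2 and 21 bound genes above are the same genes when the 4 are left out.

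Other promoter words were counted as well, and no difference between them was tested. Promoter windows ran from 250 bases before to 50 bases from the canonical TSS on, and words were counted on either strand. TATAAA was in 90 cuticle protein promoters (76.9%), against 45.3% of all. TATCGATA, the site of the factor DREF, was in 1 (0.855%), against 8.94% of all, and GGTCACACT, the site of M1BP, in 0, against 5.87% of all. These factors act at promoters of broadly expressed genes. TAACA was in 37.6% of cuticle protein promoters and 53.3% of all, ACANNTGT in 8.55% and 13.6%, the homeodomain core TAATTA in 20 of 117 and 2794 of 13945, the GAGA factor site GAGAGA in 10.3% and 12.6%, and the initiator core TCAGT in 53.0% and 51.8%. A word is not a bound site, and its absence covers these windows alone.

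Genes that build the cuticle in other ways were read from 4 further lists. Of 15 other structural cuticle proteins, such as resilin and Gasp, 0 had a summit within 1 kb of a TSS and 3 within 5 kb of the gene. Of these, Edg84A was counted through the summit at 6688586 on 3R that 4 Ccp84A genes share. A summit of obst-A lay 61 bp from the TSS of sw, and that of Pcp lay 848 bp from that of CG31908. Of 15 genes of chitin synthesis and modification, 3 had one within 1 kb. The chitinase gene Cht7 had a signal of 186.7 at 169 bp, with 65.8 in replicate 1 and 119.6 in replicate 2, in both thresholded lists. The gene knk, needed to organise chitin, had 66.0 at 53 bp (33.3 in each replicate), and the chitinase-like gene Idgf6 62.2 at 241 bp (28.5 in replicate 1, 31.4 in replicate 2), both in neither list. None of the 7 tanning and pigment genes found, such as ple and Ddc, had a summit within 1 kb or 5 kb. Of 6 regulators of cuticle genes, 4 had a summit within 5 kb of the gene. These 4 are 21526 to 50703 bp long, against a median of 2166 bp for all genes, so their windows are wider. Of the 6, only the zinc finger repressor gene ttk had a summit within 1 kb (92.2 at 11 bp, 35.6 in replicate 1 and 54.8 in replicate 2). This summit was in replicate 2's thresholded list alone. These shares are set against the same 18.5% and 43.7% of all genes, and with 6 to 15 genes a list they were not tested.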

How the data were processed

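Peaks came from ara-eGFP ChIP-seq of whole embryos, with 2 replicates in 1 group. Per the labels, chromatin was sonicated to fragments of 200 to 800 bp and coordinates are on dm6. What aligned the reads, what called the peaks and how deeply each library was sequenced is not stated in the sources used here. The authors deposited for each peak a signal of unstated normalization and a score of up to 1000. Signals were compared only within a list. Replicate signals of a conservative or other thresholded peak come from each replicate's own ranked list, at the nearest summit within 150 bp. Replicate signals given for a gene with its ranked signal are each replicate's highest within 1 kb of an own TSS. Of 4716 conservative peaks, 4706 lie on the arms used.

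Genes, TSSs and canonical transcripts came from Ensembl release 115 (BDGP6.54), and sequence from the RefSeq Release 6 genome. Counts were compared with those of all protein-coding genes, which include the cuticle protein genes, and no test was made: there is 1 group, and neighbouring genes share summits. Intervals are exact (Clopper-Pearson, 95%). Protein lengths and protein patterns, which had been planned, were not run, and promoter windows were read from the genome. Genes named are those with a summit within 5 kb, the members of each family with the highest and lowest ranked signal among the rest, and genes of the other lists with a summit within 1 kb; further names were chosen after their values were seen. The gene families, the lists and the words were chosen with earlier results of these data known. Of the 9 symbols in the tanning list, 2 were not matched. Alternatives were another thresholded list, each replicate's list, stronger peaks, other distances, gaps and TSS rules, and the repeat limit, the last, the hexamer and the gene classes of like structure or place being chosen after seeing the data. The counting was tested on simulated data. Scripts used Python 3.11.15, numpy 2.4.6, pandas 2.3.3, scipy 1.17.1, numba 0.67.0 and matplotlib 3.10.9.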

Additional observations from a re-analysis of the deposited data

How the results depend on the processing

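The count of cuticle protein genes with a summit within 1 kb of a TSS, 2 in the conservative list, was 4 in the other thresholded list, 1 with peaks at or above the median signal, 1 when a summit counted for the nearest coding TSS alone, 1 with the canonical TSS alone (Cpr73D was lost in these 3), 0 within 500 bp (15.1% of all genes) and 6 within 2 kb (23.8% of all). Leaving out either replicate gave 1 to 1, again without Cpr73D. The count within 5 kb of the gene, 21, was 12 with the stronger peaks (28.5% of all genes), 7 with the nearest TSS alone (18.8%), 1 with no flank (12.2%), 38 with 10 kb flanks (58.6%) and 30 in the other thresholded list. Leaving out a replicate gave 9 (without replicate 2) to 14 (without replicate 1). Counting any overlap of a peak changed neither count, nor did leaving out genes with repeated words. The median ranked signal, 29.8, was 23.8 within 500 bp (30.1 for all genes), and 14.9 to 16.9 in a single replicate's list, which has its own scale. Clusters with a summit within 1 kb of a TSS numbered 2 of 45, 4 in the other list, 1 to 1 without a replicate, and 2 with gaps of 10 kb or 50 kb. In each of these settings the share of bound genes, or the median, was lower for cuticle protein genes than for all genes, and no such value was computed for clusters. No paired analysis was possible because the labels give a single group. With 2 replicates, unknown depth and control libraries not used here, a start without a listed summit is not shown to be unbound, and in whole embryos of 0 to 24 h binding in few cells or at 1 stage cannot be told apart from weak binding in many.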
